A study of Mus musculus with 40 samples.

Results

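The Slpi2 line is a 4T1 mouse mammary carcinoma culture that carries the short hairpin RNA named Slpi2, and it was compared with the 3 other 4T1 lines whose hairpins are named after Slpi and were selected with the same drug. Such hairpins are processed by the cell into small RNAs that guide Argonaute proteins to matching mRNAs and lower them. The line is represented by 2 of the 20 expression columns of the series, the comparison lines Slpi1U1, Slpi1U2 and Slpi4 by 2 each, and the fifth hairpin of the same table, 66708, which was selected with puromycin, was left out of the comparison. All 4 lines were infected at a multiplicity of 0.3 and kept in 500 µg/ml hygromycin for about 10 days, per the labels' protocols. The labels do not say whether replicates came from separate infections, the hairpin sequences were not used here, and no line without a hairpin was among the samples analysed. The series asks how far hairpins disturb genes other than their target, so hairpins named after 1 gene are the natural comparison for each other. The labels list 4 samples per hairpin, with replicates lettered A and B, while the table holds 2 columns per hairpin. Nothing says what the letters stand for, which samples a column holds, or that the 2 columns came from separate cultures. The p-values below are therefore set by the spread of libraries within a line, and this may be only technical.

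Most of the named genes with the largest positive differences in the Slpi2 line belong to the program of the transcription factor ATF4. In the integrated stress response, kinases of the Eif2ak family phosphorylate the initiation factor eIF2, general translation falls, and the Atf4 mRNA is translated more. ATF4 then activates genes for amino acid synthesis, amino acid import and tRNA charging, together with regulators such as Chac1, Trib3 and Ddit4 that feed back on growth and redox balance. It binds, with partners of the C/EBP family, to a composite element with the core TGATGNAA.

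That core lies in the promoter windows of many of the genes described below, and 7 of these stretches are shown because they belong to genes among the most different in the Slpi2 line or to regulators of the program. The letters are from RefSeq on GRCm38.p6, run 5′ to 3′ on the gene's own strand, and the capitals mark the core in either orientation (TGATGNAA, or its reverse complement). Pieces that lie in an exon of another annotated transcript were limited to 30 bases.
Chac1 (chr2:119351024-119351081, plus strand): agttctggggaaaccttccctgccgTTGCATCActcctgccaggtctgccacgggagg
Asns (chr6:7693214-7693243, minus strand): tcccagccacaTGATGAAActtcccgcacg
Slc7a11 (chr3:50443628-50443704, minus strand): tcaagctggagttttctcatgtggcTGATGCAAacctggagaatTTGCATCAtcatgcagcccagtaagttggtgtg
Pck2 (chr14:55540138-55540195, plus strand): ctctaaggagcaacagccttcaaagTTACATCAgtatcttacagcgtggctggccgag
Nupr1 (chr7:126625562-126625591, minus strand): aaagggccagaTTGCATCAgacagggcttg
Atf3 (chr1:191183411-191183468, minus strand): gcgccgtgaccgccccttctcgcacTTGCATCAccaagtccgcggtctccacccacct
Jdp2 (chr12:85599358-85599415, plus strand): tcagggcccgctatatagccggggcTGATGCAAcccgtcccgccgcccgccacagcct
The cores begin 193 bases before the RefSeq start in Chac1, 110 before it in Nupr1 and Atf3, 103 in Pck2, 33 in Jdp2 and 23 in Asns. In GENCODE, the source of the gene bounds given below, Asns and Nupr1 begin further upstream, and their cores lie inside those bounds. Slc7a11 holds a pair of them, in opposite orientations, that begin 66 and 47 bases before the start. Of the 42 genes in the ATF4 program lists that were called higher in the Slpi2 line, 33 had a window of 250 bases before to 50 after the start, and 15 of these windows held the core on either strand (45.45%). None of the 21 tested members that were not called and had a window held it. The share was 4.51% over all 27025 genes with a window and 2.47% over the 7196 tested genes with one. A match is a description of these letters and does not show that a factor bound there. The lists gather genes of the ATF4 program and were chosen with results of these data in view. The shares in them are therefore no independent evidence.

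The labelled target Slpi, a secreted antiprotease, is annotated on chromosome 2 at 164354070 to 164389095 (GRCm38, minus strand). Its scaled reads, the reads of a library divided by the size factor of the table, were 791 and 809 in Slpi2, 759 and 811 in Slpi1U1, 863 and 937 in Slpi1U2, and 1027 and 992 in Slpi4. The Slpi2 libraries lay inside the range of Slpi1U1 and below those of Slpi1U2 and Slpi4. Against the mean of the other 3 lines the difference was -0.11 ± 0.04 (SE) on the deposited log2-like scale, with a 95% interval of -0.19 to -0.03 (limma, adjusted p = 0.166). Only the pair with Slpi4 passed the test (-0.23, limma, adjusted p = 0.0134). With Slpi1U1 left out of the comparison the difference was -0.17 and passed (limma, adjusted p = 0.0247).

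The Slpi2 libraries held 17.8 M and 17.3 M counted reads and the other 6 held 12.2 M to 20.4 M, with those of Slpi4 (20.4 M and 19.5 M) above and those of Slpi1U1 and Slpi1U2 below Slpi2. The 45S ribosomal RNA gene Rn45s took 1.40% and 1.82% of reads in Slpi2 and 1.27% to 1.87% in the others. The 7 epithelial markers Epcam, Cdh1, Krt8, Krt18, Krt14, Krt7 and Cldn4 all reached 1 CPM (the reads of a gene scaled to a common library total) and summed to 2031 to 2083 CPM in Slpi2 and 1948 to 2079 CPM in the others. Of these 7 only Krt7 was called, as higher in Slpi2. Of 6 leukocyte markers only Cd14 reached 1 CPM, and their sum was 13.5 to 14.7 CPM in Slpi2 and 11.3 to 13.0 CPM in the others, without overlap. The part of depth and of these markers in the results was not tested. Of 4 fibroblast markers only Pdgfra reached 1 CPM, with sums of 39.9 to 44.4 CPM and 41.6 to 53.3 CPM. The 4 endothelial markers summed to at most 1.23 CPM, the adipocyte pair to at most 0.196 CPM, and both erythroid markers were at 0.

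Of 9499 genes tested, 318 differed between Slpi2 and the mean of the other 3 lines (3.35%), 177 of them higher (1.86%) and 141 lower (1.48%; limma, adjusted p under 0.05). Most of these differences were small. The median fold in scaled reads, taken as the Slpi2 mean over the mean of the 3 line means, was 1.25 for genes called higher, and genes called lower were 1.21-fold lower at the median. At least 1.5-fold differences were found for 19 called genes that were higher and 4 that were lower. The 3 genes of at least 2-fold, Chac1, Ddit4 and Trib3, were all higher. For 162 of the genes called higher and 116 of those called lower, neither Slpi2 library overlapped the other 6. Over all genes tested, 730 had both Slpi2 libraries above the other 6 (7.69%) and 574 below (6.04%). In bulk RNA a difference in level cannot be split between fewer cells that express a gene and less RNA per cell.

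The counts depended on which lines and libraries entered. Against single lines, 407 genes were called between Slpi2 and Slpi1U1 (4.28%), 129 against Slpi1U2 (1.36%) and 352 against Slpi4 (3.71%); these comparisons share the Slpi2 libraries. Higher calls against each of the 3 lines were found for 46 genes (0.484%), of which 26 were in the ATF4 program lists, and lower calls against each for 15 (0.158%). When every other line was set against the mean of its 3 partners in the same fit, 140 genes were called for Slpi1U1 (1.47%), 86 for Slpi1U2 (0.905%) and 458 for Slpi4 (4.82%). Without Slpi2 replicate 1 the 318 calls became 76, without Slpi2 replicate 2 they became 78, and without Slpi1U1 replicate 2 they became 529. When each line was reduced to its mean, so that 1 value stood against 3, limma called 0 genes, with 447 at an unadjusted p under 0.05. Against Slpi1U1 the count was 188 without Slpi1U1 replicate 1, 794 without its replicate 2, and 109 and 145 without Slpi2 replicate 1 and 2. Against Slpi1U2 it was 227 and 226 without Slpi1U1 replicate 1 and 2, 56 and 71 without Slpi1U2 replicate 1 and 2, and 25 and 37 without Slpi2 replicate 1 and 2. Against Slpi4 it was 125 and 126 without Slpi4 replicate 1 and 2, and 102 and 118 without Slpi2 replicate 1 and 2. The calls rest on the spread between libraries of a line and do not measure the spread between lines. The fit on line means uses the spread between the other 3 lines, but with a single value in an arm it decides little.

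**Figure D1:**
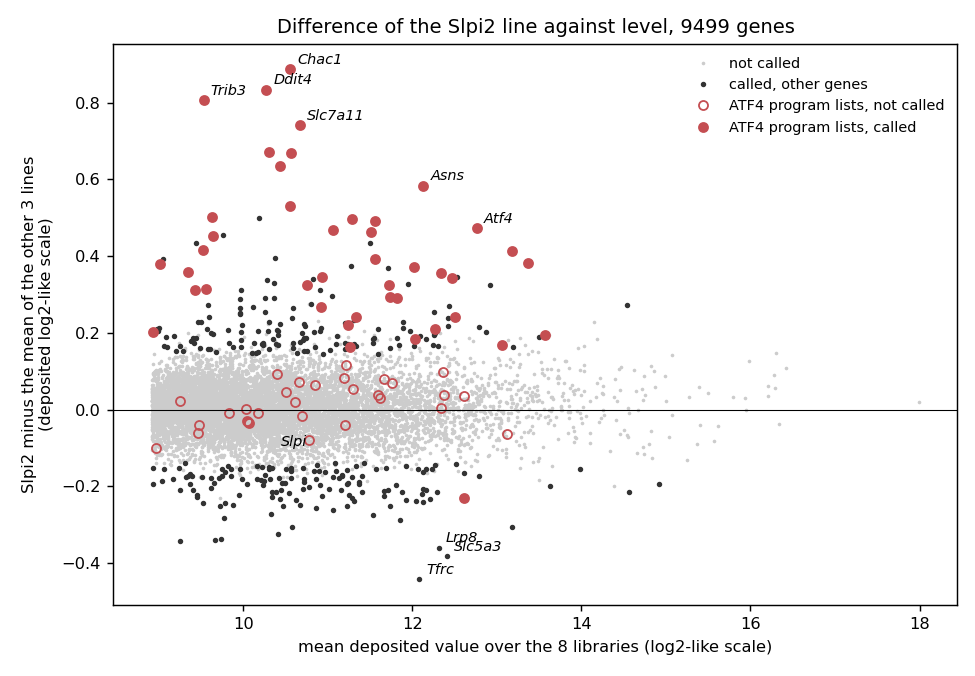
Each point is 1 of 9499 genes, with its mean deposited value over the 8 libraries on the horizontal axis and the difference of Slpi2 from the mean of the other 3 lines on the vertical axis, both on the deposited log2-like scale. Red points are members of the ATF4 program lists, filled where called; Chac1 reaches 0.89 at the top and Tfrc -0.44 at the bottom, and the scale compresses differences of weakly expressed genes towards the left.

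The ATF4 program was described with 4 lists: regulators of the integrated stress response, enzymes of amino acid synthesis and one-carbon metabolism, amino acid transporters, and cytosolic aminoacyl-tRNA synthetases. They hold 85 genes, of which 73 passed the filter on low values. Of these, 42 were called higher and 1 lower, with a median difference of 0.21 against 0.00 over all genes tested. Slpi2 was the highest of the 4 lines for 54 of the 73 (74.0%), against 2469 of all 9499 genes (26.0%). The lists made up 42 of the 177 genes called higher (23.7%) and 11 of the 12 named genes with the largest positive differences. Without Slpi2 replicate 1 or replicate 2 the calls kept were 32 of 43 in either case, and 42 or 43 were kept without any other single library. With either Slpi2 library alone most of these calls thus remained. The lists were chosen with results of these data in view and their count is no independent evidence.

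Regulators of the stress response were higher in Slpi2 for 13 of 19 tested members, with none lower and a median difference of 0.36. Atf4 itself, on chromosome 15 (80255184 to 80257541), had 8402 and 8419 scaled reads in Slpi2, 4813 and 4827 in Slpi1U1, 6827 and 6567 in Slpi1U2, and 6386 and 6485 in Slpi4. Both Slpi2 libraries stood above all others, Slpi1U1 was lowest, and the remaining pair of lines lay close together. The difference was 0.47 ± 0.04 (SE), a 1.41-fold higher level (limma, adjusted p = 2.355e-06). The 4 Eif2ak kinases that start the pathway, measured here as transcripts only, had differences of -0.04 to 0.02 and none was called.

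Chac1, an enzyme that degrades glutathione, had the largest difference of any gene called. The gene is at 119351229 to 119354381 of chromosome 2, plus strand. Scaled reads of Chac1 were 1965 and 1869 in Slpi2, 349 and 406 in Slpi1U1, 1467 and 1374 in Slpi1U2, and 961 and 1038 in Slpi4. No library of another line reached the Slpi2 level, and the lines fell in the order Slpi2, Slpi1U2, Slpi4 and Slpi1U1 without overlap. The difference from the mean of 3 was 0.89 ± 0.04 (SE; 95% interval 0.79 to 0.98; limma, adjusted p = 7.102e-08), or 2.06-fold. It was 5.08-fold against Slpi1U1, 1.92-fold against Slpi4 and 1.35-fold against Slpi1U2, and all 3 pairs passed (limma, adjusted p = 0.004004 for the last). The Chac1 difference was thus widest against the line with the lowest level.

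Trib3, a pseudokinase that restrains ATF4, gave the largest fold. Its scaled reads were 686 and 698 in Slpi2, 99 and 130 in Slpi1U1, 400 and 342 in Slpi1U2, and 308 and 327 in Slpi4. The groups did not overlap, and Trib3 was 2.59-fold higher (0.81 ± 0.04, SE; limma, adjusted p = 2.071e-07). Ddit4, an inhibitor of the growth kinase complex mTORC1, had 1767 and 1192 scaled reads in Slpi2, 351 and 426 in Slpi1U1, 899 and 668 in Slpi1U2, and 714 and 970 in Slpi4. Its Slpi2 libraries differed from each other more than those of any gene above, yet the lower of them was above every other library. Ddit4 was 2.20-fold higher, with a larger error (0.83 ± 0.10, SE; limma, adjusted p = 0.0002242), and its call was lost when no filter on low values was applied (limma, adjusted p = 0.0567).

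Nupr1, a small stress-induced chromatin protein, stood at 1454 and 1493 scaled reads in Slpi2 and at 566 to 1000 in the other 6 libraries (1.81-fold, 0.64 ± 0.04). Among the other regulators called, the differences ran from 0.18 for Ppp1r15b to 0.45 for Stc2. They were Ppp1r15a and Ppp1r15b, which direct the phosphatase that reverses eIF2 phosphorylation, Sesn2 and Eif4ebp1, which hold back mTORC1 signalling and cap-dependent translation, the factors Atf3, Atf5 and Jdp2, and the secreted glycoprotein Stc2. Cebpg (0.12) and Cebpb (-0.06), which encode partners of ATF4, were not called. Ddit3, which encodes the factor CHOP, lay under the filter and was not tested with the 9499 genes. It had 162 and 157 scaled reads in Slpi2 and 65 to 117 in the other 6 libraries. It is given here after its values were seen.

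**Figure D2:**
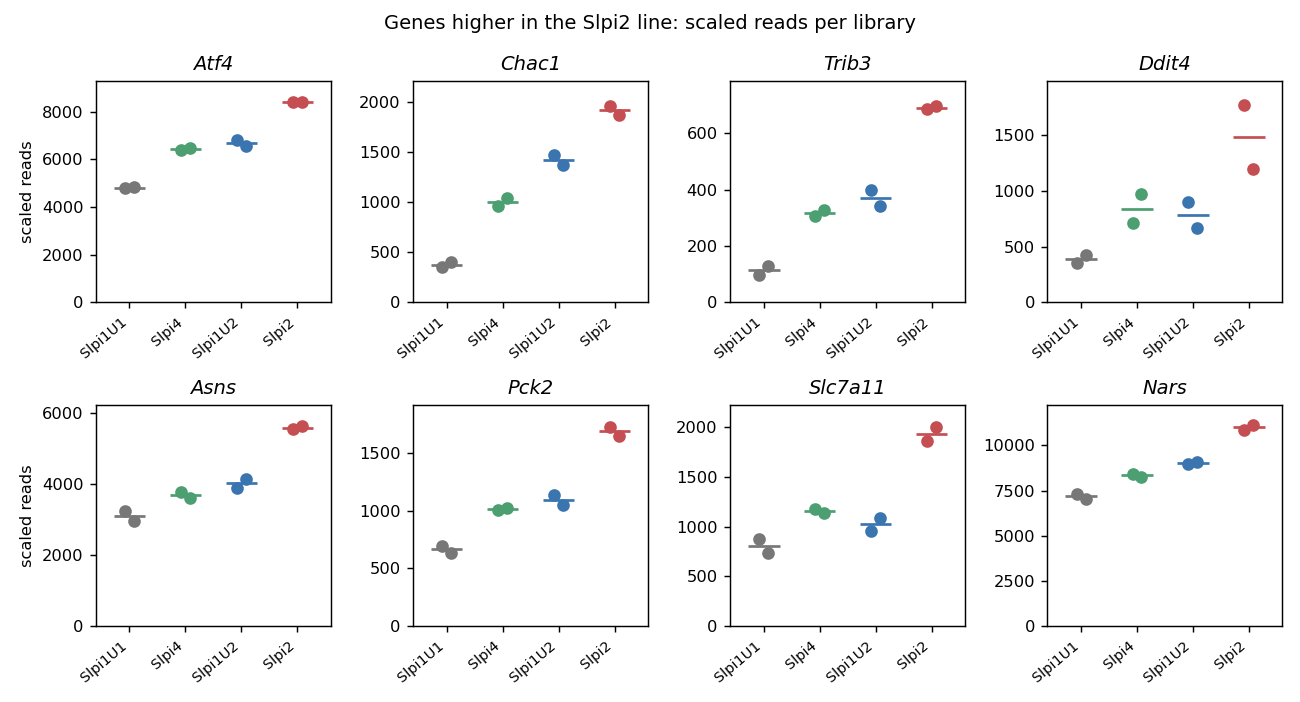
Scaled reads (vertical axes from 0) of 8 ATF4 program genes in the 2 libraries of each line; points are libraries and short bars are line means. For all 8 genes both Slpi2 points lie above every other point, as with the 5540 and 5634 scaled reads of Asns against 2946 to 4140 elsewhere, and Slpi1U1 has the lowest mean.

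Enzymes of amino acid synthesis and one-carbon metabolism were higher for 10 of 20 tested members and lower for 1, with a median difference of 0.12. Asns, which makes asparagine from aspartate, is at 7675169 to 7693254 of chromosome 6, minus strand. Asns had 5540 and 5634 scaled reads in Slpi2, 3236 and 2946 in Slpi1U1, 3892 and 4140 in Slpi1U2, and 3770 and 3596 in Slpi4. Both Slpi2 libraries stood clear of the other 6, by a 1.55-fold difference of the means (0.58 ± 0.04, SE; 95% interval 0.49 to 0.67; limma, adjusted p = 1.572e-06). Against single lines Asns was 1.81-fold higher than Slpi1U1, 1.52-fold than Slpi4 and 1.39-fold than Slpi1U2. With line means as samples its adjusted p was 0.552, and for Chac1 it was 1.00.

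The mitochondrial enzymes Gpt2, an alanine aminotransferase, and Pck2, which makes phosphoenolpyruvate, came next after Slc7a11 in size. Gpt2 had 1387 and 1287 scaled reads in Slpi2, 495 and 467 in Slpi1U1, 829 and 874 in Slpi1U2, and 754 and 814 in Slpi4. Pck2 had 1724 and 1653 in Slpi2, 696 and 637 in Slpi1U1, 1137 and 1050 in Slpi1U2, and 1006 and 1023 in Slpi4. Neither overlapped, with 1.89-fold for Gpt2 and 1.83-fold for Pck2 (0.67 ± 0.04 for both; limma, adjusted p = 2.969e-07 for both). Mthfd2, of mitochondrial one-carbon metabolism, was also higher (0.50), as was Psph, of the last step of serine synthesis (0.47). The others called higher were Psat1 (0.38), Aldh18a1 (0.35), Aldh1l2 (0.31), Shmt2 (0.29) and Got1 (0.16), while Phgdh, the first enzyme of serine synthesis, was not called (0.05). The member called lower was Mat2a (-0.23), which makes the methyl donor S-adenosylmethionine, and its call was lost without Slpi2 replicate 1 and without replicate 2.

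Amino acid transporters were higher for 8 of 14 tested members and lower for none, with a median difference of 0.23. Slc7a11, the cystine and glutamate exchanger on chromosome 3 (49892526 to 50443614), had 1861 and 1996 scaled reads in Slpi2, 880 and 732 in Slpi1U1, 956 and 1089 in Slpi1U2, and 1180 and 1132 in Slpi4. As for Ddit4, the line with the next highest mean after Slpi2 was Slpi4 and not Slpi1U2. The difference was 0.74 ± 0.05 (SE), or 1.94-fold (limma, adjusted p = 9.623e-07), and 1.67-fold against Slpi4 alone. Slc3a2, the heavy chain that Slc7a11 and Slc7a5 pair with, was 1.47-fold higher (0.49), and Slc7a5, the large neutral amino acid exchanger, 1.45-fold (0.46). Slc1a4, a carrier of alanine, serine and cysteine, was 1.63-fold higher. The glycine carrier Slc6a9 was 1.85-fold higher, but 27.8% of its exon bases overlap Ccdc24, so its count is uncertain. Slc7a1 (0.37), Slc1a5 (0.27) and Slc38a2 (0.20) completed the calls.

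Cytosolic aminoacyl-tRNA synthetases, which load amino acids onto tRNAs, were higher for 11 of 20 members and lower for none, with a median difference of 0.19. Without Slpi2 replicate 1 the count higher was 7, and without replicate 2 it was 6. Slpi2 was the highest of the 4 lines for 18 of the 20. Nars had 10885 and 11143 scaled reads in Slpi2, 7324 and 7037 in Slpi1U1, 8990 and 9103 in Slpi1U2, and 8428 and 8278 in Slpi4. This synthetase for asparagine had the largest difference of the family, without overlap, at 1.34-fold (0.41 ± 0.04; limma, adjusted p = 1.285e-05). Aars (0.36), Tars (0.34), Sars (0.33) and Cars (0.32), for alanine, threonine, serine and cysteine, followed. Lars, Yars, Gars, Mars, Iars and Eprs ranged from 0.29 to 0.17, and the other 9 ranged from -0.02 to 0.10 and were not called. None of the 14 tested mitochondrial synthetases was called by limma, with a median difference of -0.02.

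**Figure D3:**
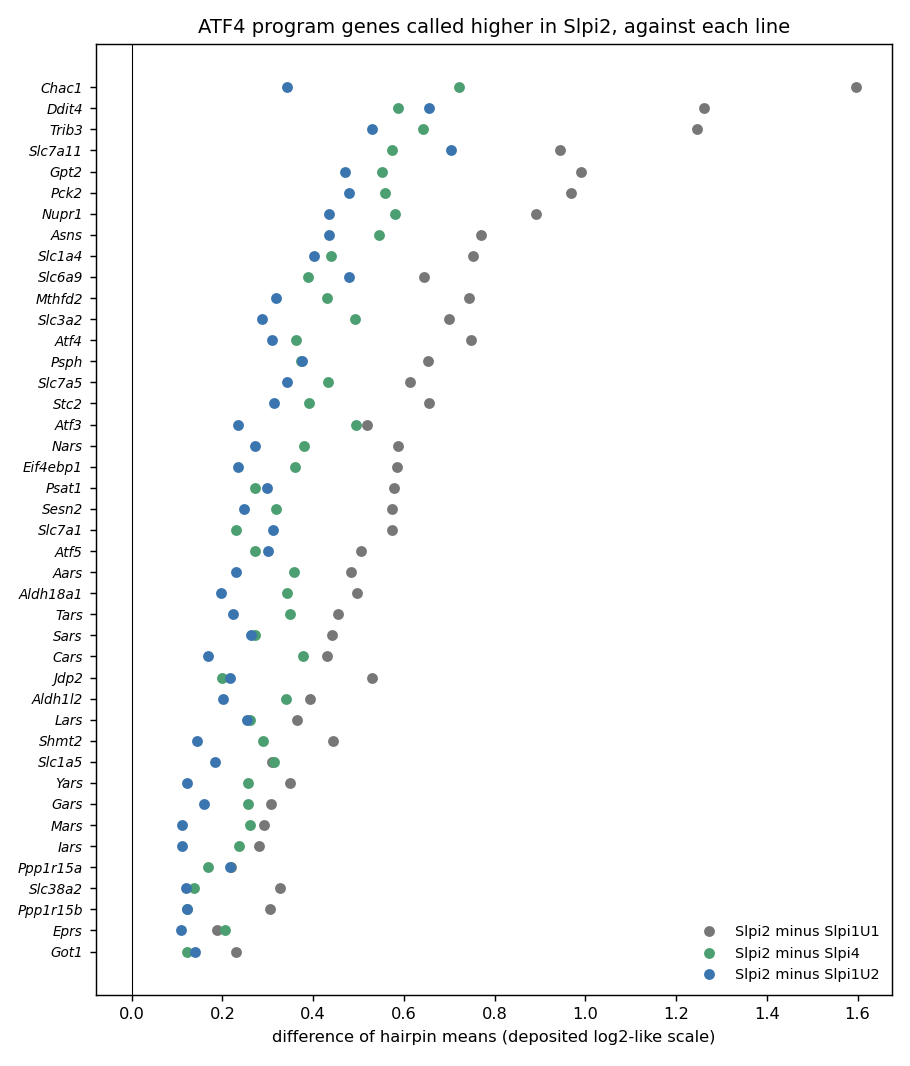
Differences of Slpi2 from each of the 3 other lines (horizontal axis, deposited log2-like scale) for the 42 ATF4 program genes called higher, 1 row per gene; the 3 comparisons share the Slpi2 libraries. All points lie above 0, Chac1 spans 0.34 to 1.60, and the difference from Slpi1U1 is the largest for most genes.

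Slpi1U1 was the lowest of the 4 lines for 49 of the 73 tested members, against 2465 of all 9499 genes. Against the mean of its 3 partners Slpi1U1 was lower for 36 of the 73 and higher for 1, where 87 of all genes were called lower. In the same way Slpi1U2 was higher for 1 and lower for 0, and Slpi4 higher for 1 and lower for 3. Over all 9499 genes these counts were 26 and 60 for Slpi1U2 and 212 and 246 for Slpi4. Each of these means includes Slpi2, so they do not compare the other 3 lines among themselves, which was not tested. Slpi2 was called higher than Slpi1U1 for 42 of the 73, than Slpi4 for 37 and than Slpi1U2 for 27. Over all 9499 genes it was called higher for 232, 187 and 86 in the same order. With Slpi1U1 left out of the comparison, 39 of the 73 were still higher and 1 lower, so the calls were not carried by that line alone. With Slpi1U2 left out the counts were 43 and 1, and with Slpi4 left out 41 and 1. Over all 9499 genes the counts higher and lower were 141 and 109 without Slpi1U1, 195 and 175 without Slpi1U2, and 164 and 114 without Slpi4.

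Outside these lists, Herpud1, of endoplasmic reticulum associated degradation, was the only member of the 12 highest named genes. It had 1079 and 1050 scaled reads in Slpi2, 508 and 425 in Slpi1U1, 790 and 810 in Slpi1U2, and 676 and 692 in Slpi4. The groups did not overlap, and Herpud1 was 1.64-fold higher (0.50 ± 0.04; limma, adjusted p = 6.846e-06). It was the only 1 of 23 tested chaperone and unfolded protein response genes to be called. The chaperone Hspa5 had a difference of -0.08, Xbp1 -0.05 and Dnajb9 -0.04. Among heat shock proteins 2 of 12 were lower, Hsph1 (-0.20) and Hspa8 (-0.19), and both calls were lost without Slpi2 replicate 1 and without replicate 2. Beside these and the list counts that follow, 1.86% of all genes tested were called higher and 1.48% lower. In lists of this size, 1 or 2 calls say little about a family.

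Gadd45a, a growth arrest gene listed here with p53 and its targets, was the only called member of 12, at 731 and 612 scaled reads in Slpi2 and 279 to 491 in the other 6 libraries (1.69-fold, 0.45 ± 0.04; limma, adjusted p = 2.891e-05). The hypoxia and glycolysis list had 3 of 22 members higher and none lower. Ndrg1, a stress and differentiation gene, had 6740 and 6403 scaled reads in Slpi2 and 4864 to 5323 in the others (1.29-fold, 0.35). Vegfa, the endothelial growth factor, was 1.29-fold higher (0.25), and Car9, a carbonic anhydrase, 1.16-fold (0.17). The Car9 call was lost without either Slpi2 replicate. Of the laminin chains, Lamb3 was 1.40-fold and Lama3 1.29-fold higher. The integrin chains Itga1 (-0.18) and Itga8 (-0.17) were lower, which made 3 higher and 2 lower among 20 integrin and laminin genes. Of these 5 calls, 1 was kept without Slpi2 replicate 1 and 2 without replicate 2. Keratins Krt19 (0.22) and Krt7 (0.16) were higher among 16 epithelial genes, and 1 of these calls was kept without Slpi2 replicate 1 and 0 without replicate 2.

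The genes lower in Slpi2 were fewer at large sizes and did not come from 1 list. Tfrc, the transferrin receptor that imports iron, on chromosome 16 (32608920 to 32632794), had the largest negative difference. Its scaled reads were 3095 and 2834 in Slpi2, 4627 and 4217 in Slpi1U1, 4062 and 4260 in Slpi1U2, and 4209 and 3793 in Slpi4. Both Slpi2 libraries lay below the other 6, and the other 3 lines overlapped each other. Tfrc was 1.41-fold lower, with a difference of -0.44 ± 0.05 (SE; 95% interval -0.55 to -0.34; limma, adjusted p = 8.72e-05), and it was lower against each line. For N4bp2 and Ttc9, too, both Slpi2 libraries lay below the other 6. N4bp2, which encodes a binding partner of the ubiquitin ligase Nedd4, had 270 and 291 scaled reads in Slpi2 and 425 to 463 in the other 6 (1.58-fold lower), and Ttc9, a tetratricopeptide protein, had 321 and 306 against 452 to 541 (1.55-fold lower).

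Slc5a3, the cotransporter of sodium and myo-inositol, had 3939 and 3993 scaled reads in Slpi2, 5846 and 5776 in Slpi1U1, 4640 and 4889 in Slpi1U2, and 5546 and 5259 in Slpi4. The libraries of the 4 lines did not overlap, and the level was 1.34-fold lower in Slpi2 (-0.38 ± 0.04; limma, adjusted p = 3.201e-05). Lrp8, a receptor for reelin and apolipoprotein E, had 3601 and 3893 scaled reads against 4540 to 5367 and was 1.32-fold lower (-0.36). Ap4e1, a subunit of the adaptor complex AP-4, was 1.33-fold lower (-0.27). Tfrc, Slc5a3, Lrp8, N4bp2, Ttc9 and Ap4e1 passed against each of the 3 lines and were called without any 1 library.

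The remaining 6 of the 12 named genes with the largest negative differences did not pass against Slpi1U2. Ccl2, which attracts monocytes, had 153 and 130 scaled reads in Slpi2, 225 and 241 in Slpi1U1, 164 and 158 in Slpi1U2, and 408 and 388 in Slpi4. Slpi2 and Slpi1U2 lay next to each other, far below Slpi4, and that pair did not pass (-0.07, 95% interval -0.17 to 0.03; limma, adjusted p = 0.529). The 1.87-fold lower mean of Ccl2 (-0.34) thus came from Slpi4 and Slpi1U1. The endopeptidase Phex (-0.33), the histone H3.3 gene H3f3b (-0.31), the pseudokinase Trib2 (-0.28), the matrix protein Thbs1 (-0.28) and the SNARE protein Ykt6 (-0.26) also did not pass against Slpi1U2. The Trib2 and Ykt6 calls were lost without Slpi2 replicate 2, and that of Thbs1 without either Slpi2 replicate. The calcification inhibitor Mgp, after which other hairpins of the series are named, was 1.45-fold lower than the mean of 3 (-0.24) and stood at -0.02 against Slpi1U2. It was the only called member of 5 BMP and Id genes, and the call was lost without Slpi2 replicate 1, without replicate 2, or without the line Slpi4.

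**Figure D4:**
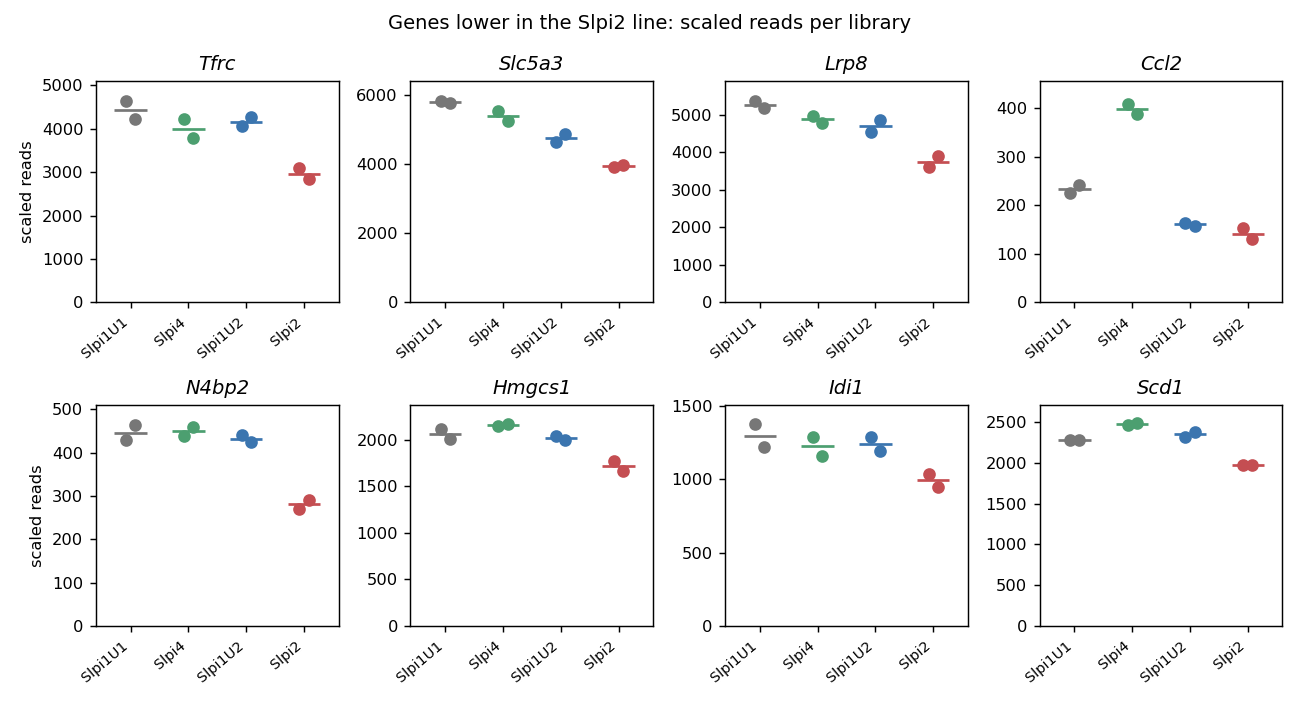
Scaled reads (vertical axes from 0) of 8 genes called lower in Slpi2, in the 2 libraries of each line; points are libraries and short bars are line means. Tfrc, N4bp2 and Scd1 show Slpi2 alone below, while for Ccl2 the 153 and 130 scaled reads of Slpi2 lie beside the 164 and 158 of Slpi1U2.

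Cholesterol genes were called lower for 5 of 24 tested members and higher for none, with a median difference of -0.07. Slpi2 was the lowest of the 4 lines for 16 of the 24, against 2171 of all 9499 genes. These genes share control by the factor SREBP2, which binds sterol response elements. One element of that kind, TCACNCCAC on either strand, lies in the window of Hmgcs1, the enzyme that commits acetyl units to the pathway, and is shown with the element in capitals. It was found for 1 of the 4 called genes with a window and for 1.44% of all 27025 genes with one.
Hmgcs1 (chr13:119690189-119690247, plus strand, GRCm38.p6, RefSeq): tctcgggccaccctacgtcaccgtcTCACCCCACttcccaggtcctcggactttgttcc
Hmgcs1 had 1770 and 1664 scaled reads in Slpi2, 2114 and 2001 in Slpi1U1, 2036 and 1999 in Slpi1U2, and 2147 and 2172 in Slpi4. Both Slpi2 libraries were below the other 6, by 1.21-fold (-0.22 ± 0.04; limma, adjusted p = 0.00363). Idi1, which isomerizes isopentenyl diphosphate, was 1.26-fold lower (-0.25), Hsd17b7, of the later steps, 1.25-fold (-0.23), and Insig1, which retains the SREBP system in the endoplasmic reticulum, 1.23-fold (-0.24). These calls were thin: 1 of 5 was kept without Slpi2 replicate 1 and 0 without replicate 2. Srebf2, which encodes SREBP2, was not called (-0.01).

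Of 20 fatty acid and lipid droplet genes 3 were lower and 1 higher. The desaturase Scd1 had 1975 and 1976 scaled reads in Slpi2, 2274 and 2280 in Slpi1U1, 2319 and 2372 in Slpi1U2, and 2460 and 2483 in Slpi4. Slpi2 was below all others and Scd1 was 1.20-fold lower (-0.22). Fatty acid synthase Fasn was 1.14-fold lower (-0.17) and the elongase Elovl6 1.12-fold (-0.14), while the lipid droplet coat protein Plin2 was 1.21-fold higher (0.25). Of these 4 calls, 1 was kept without Slpi2 replicate 1 and 0 without replicate 2.

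Secreted proteases and their inhibitors were lower for 3 of 18, Mmp3 (-0.23), Plau (-0.16) and Plat (-0.15), and higher for none. Mmp3, a stromelysin, had 729 and 700 scaled reads in Slpi2, 987 and 909 in Slpi1U1, 626 and 550 in Slpi1U2, and 1295 and 1241 in Slpi4. Slpi2 thus lay above Slpi1U2 and below the others, and all 3 calls were lost without Slpi2 replicate 1, without replicate 2, or without the line Slpi4. Among 14 chemokine and cytokine genes Csf1 (-0.22), the macrophage growth factor, was lower beside Ccl2. Of 15 mesenchymal and matrix genes Ankrd1 (-0.15) was lower beside Thbs1. Of 23 glutathione, thioredoxin and NRF2 genes, Osgin1 (0.20) and Txnip (0.18) were higher and Gsta4 (-0.22) was lower. Of 24 replication genes the licensing factor Cdt1 (0.17) was higher and the cyclin Ccne2 (-0.22) lower, and none of 20 mitosis genes was called.

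The remaining lists gave few or no calls with limma. Cytoplasmic ribosomal proteins had positive differences for 76 of 78 members, with a median of 0.09, against 4970 of all 9499 genes positive. The median difference was 0.17 against Slpi1U1, 0.10 against Slpi1U2 and 0.01 against Slpi4. Slpi1U1 was the lowest line for 65 of these members, and the highest was Slpi2 for 52 and Slpi4 for 25. Rpl23 was the only member called (0.19), and not without either Slpi2 replicate, while without Slpi1U1 replicate 2 as many as 25 of the 78 were called higher. Mrpl18 (-0.16) was the only call among 74 mitochondrial ribosomal proteins, Oasl1 (0.16) the only call among 15 interferon-stimulated and RNA sensing genes, and Msln (0.19), a surface glycoprotein, the only call among 14 S100 and surface genes. No member was called among 13 small RNA pathway genes (median -0.07), 17 immediate early and ERK output genes (-0.04), 37 proteasome subunits (-0.02), 24 ribosome biogenesis genes (0.00), 16 lysosome and autophagy genes (0.00), 12 MHC class I genes (0.01), 73 respiratory chain subunits (0.02) and 21 histones (0.03). Of the 318 genes called, 222 belonged to none of the lists. Several of the smaller differences above also rested on libraries of other lines. The calls of Hspa8, Cdt1, Itga8, Plat, Txnip, Rpl23 and Mrpl18 were lost without either Slpi2 library, Slpi1U2 replicate 2 or either Slpi4 library. That of Plau was lost without either Slpi2 library, Slpi1U2 replicate 2 or Slpi4 replicate 1, and those of Oasl1 and Itga1 without any Slpi2 or Slpi4 library. Msln lost its call without either Slpi2 library or Slpi4 replicate 2, Elovl6 without any library but those of Slpi1U1, and Ankrd1 without any but Slpi1U1 replicate 2. Lamb3 and Ccne2 lost theirs without Slpi2 replicate 1 only, and Lama3, Csf1, Osgin1 and Gsta4 without either Slpi2 library.

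**Figure D5:**
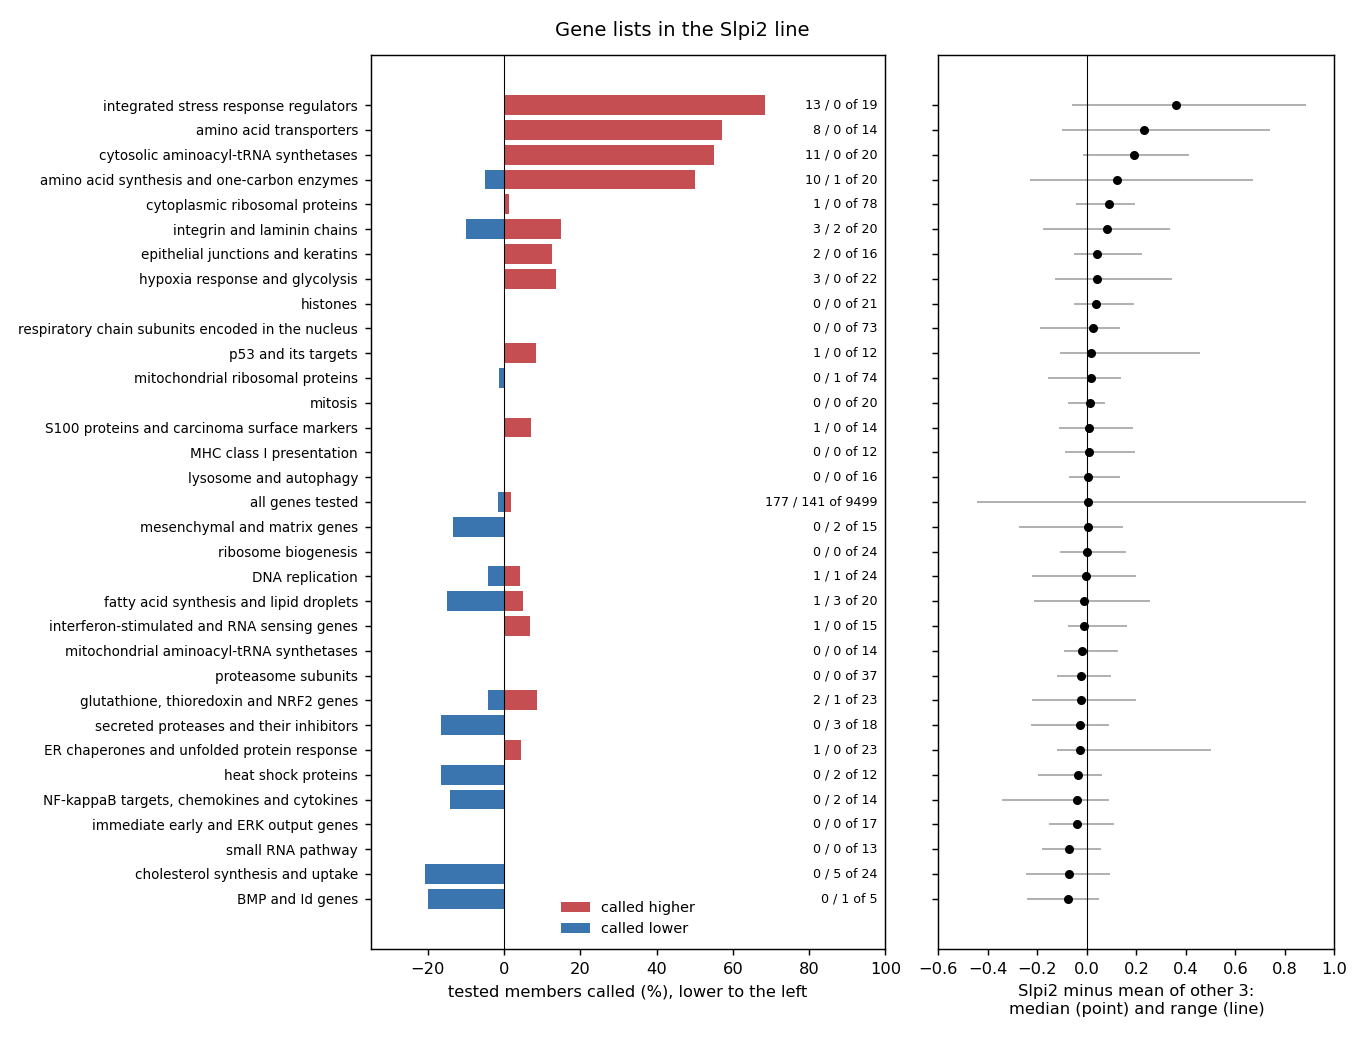
Left, the share of tested members of each gene list called higher (right of 0) or lower (left of 0) in Slpi2, with the counts higher / lower of tested; right, the median (point) and range (line) of the differences on the deposited log2-like scale. The 4 ATF4 program lists have 57.5% of members higher together, against 1.86% of all genes, and the cholesterol list has 20.8% lower, against 1.48%.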

How the data were processed

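RNA of 10 lines of 4T1 cells, 2 columns each, was measured by RNA sequencing: 100 ng of RNA, fragments of about 200 bp and 76 bp reads, per the labels' protocols. The submitters' processing notes name Bowtie2, HTSeq, DESeq and mm10; no source used here gives versions, annotation or strand setting. The deposited values are variance-stabilized by the authors on a log2-like scale with a smallest value of 7.92. A doubling from 100 scaled reads gives 0.36 on it and from 1000 gives 0.77, so differences understate changes of low genes. The transform was inverted, and 100% of values gave whole reads within 0.001; scaled reads and CPM come from these. Columns were tied to hairpins by name, not to single samples. Libraries of 1 line differed by more than counting noise (chi-square per degree of freedom 3.08 to 5.99 over genes with at least 20 reads).

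Of 23480 genes, the 9499 with a mean at least 1 unit above the smallest value (121 scaled reads) were tested with limma 3.58.1 (R 4.3.3, intensity trend) on the 8 columns, with 1 mean per hairpin and Benjamini-Hochberg adjustment over all genes tested, two-sided. All adjusted p-values come from limma. Calls are adjusted p-values under 0.05. The script was tested on simulated data. Alternatives were other scalings, voom on recovered reads, other filters, all 10 columns, line means as samples, a replicate block, and leaving out each library or line; counts for gene lists under them were added after seeing the data. Named genes were the 12 highest and the 12 lowest called genes whose Slpi2 libraries lay outside the other 6, Slpi, Chac1, Asns, and up to 5 called members of each of 32 gene lists with the largest differences; other list members are given with their list. Some members counted in the lists are not reported here by name. Coordinates are from GENCODE M21 (GRCm38); all 71 named genes had a match. The line, the lists and the rule were chosen with earlier results of these data known.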

Additional observations from a re-analysis of the deposited data

How the results depend on the processing

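None of the 71 genes named by the rule changed direction under an alternative in which it was tested; at the minimum of 3 units 35 of them were tested. With no filter 31 of them lost their call, Ddit4 among them. Beside the 318, 407, 129 and 352 genes called for Slpi2 against the mean of 3, Slpi1U1, Slpi1U2 and Slpi4, no filter on low values gave 86, 119, 21 and 99 (20985 genes tested), and a minimum of 3 units gave 145, 187, 56 and 173 (2699 tested). Leaving out 1 library at a time gave 76 to 529, 109 to 794, 25 to 227 and 102 to 517; the lowest counts came without a Slpi2 library. With line means as samples 0 genes passed and the 70 called genes among them lost their call, in a fit with a single value in an arm. Equal library medians (308 against the mean of 3), quantile normalization (315), log2 of scaled reads plus 1 (312), voom (340, and 353 over 12349 genes) and all 10 columns (347) stayed within 1.5 times. Under the equal medians 73 of 78 ribosomal protein genes had positive differences, not 76. With the replicate block the counts were 314, 396, 119 and 376. Deviations of same-numbered libraries correlated at -0.25 to 0.55, with signs that differed between pairs of lines, so the numbers were not taken as pairs. The correlation was 0.55 for Slpi1U1 with Slpi4 and 0.35 for Slpi2 with Slpi1U2. The fit treats the libraries as independent, which these values do not show. Depth limits the comparison for genes under the filter, Ddit3 among them.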

Other observations

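Levels across all 10 lines of the series set Slpi2 beside lines outside its own comparison. They are CPM, means ± SD of 2 libraries, and were not tested, since the Slpi and Mgp tables were normalized separately. Chac1 stood at 116 ± 5.06 CPM in Slpi2, the highest of the 10, followed by 87.6 ± 4.80 in Slpi1U2 and 86.2 ± 2.18 in 88943, whose ranges overlap. It was 60.3 in Slpi4, 23.2 in Slpi1U1 and 13.2 in 66708, and 10.0 to 10.9 in the 4 lines named after Mgp. For Asns the leading pair was Slpi2 and 88943, at 339 ± 1.44 CPM in Slpi2 and 317 ± 0.03, with 101 to 120 in the lines named after Mgp. For Trib3 the order of this pair was turned, with 45.9 ± 1.51 CPM in 88943 and 42.0 ± 0.18 in Slpi2, and for Slc7a11 it was 147 ± 1.59 and 117 ± 4.89. Atf4 was highest in Slpi2 at 510 ± 3.21 CPM, with 449 ± 5.32 in 88943 and 252 to 280 in the lines named after Mgp. Slpi2 and 88943 thus held the top 2 levels of Asns, Trib3, Slc7a11 and Atf4, while for Chac1 Slpi1U2 stood between them. The mean of 88943 was also above that of Slpi2 for Pck2 (114 against 103 CPM), Gpt2 (86.6 against 81.2) and Nupr1 (118 against 89.4). The same held for Ddit4 (91.5 against 89.9) and Psat1 (766 against 750), where the libraries overlapped. The line 88943 was selected with puromycin and belongs to the Mgp table. The other puromycin line, 66708, stood at 112 CPM for Asns, 4.32 for Trib3, 39.5 for Slc7a11 and 289 for Atf4. The part of the drug was not tested.

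Tfrc ran the other way. It was lowest in Slpi2, at 180 ± 12.6 CPM, and next lowest in 88943, at 191 ± 9.94, a gap within their spread, against 241 to 272 in the other 3 hygromycin lines of the Slpi table and 356 to 516 in the lines named after Mgp. Hmgcs1 was also lowest in Slpi2 (104 ± 5.35 CPM) and next lowest in 88943 (108 ± 4.63), again within their spread. Idi1 was lowest in 88943 (48.8 ± 0.76 CPM) and next lowest in Slpi2 (60.2 ± 4.20). In 66708 Tfrc was at 362 CPM and Hmgcs1 at 187 CPM, for Hmgcs1 the highest of the 10 lines.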
